A study of Mus musculus with 8 samples.

Results

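A set of 10 genes that encode inhibitors of Wnt signalling were followed in intestinal tumors and small intestine of Apc-mutant mice: Notum, Wif1, Dkk1, Dkk2, Dkk3, Dkk4, Nkd1, Nkd2, Apcdd1 and Kremen1. They were found by gene symbol, and all 10 have a row among the 43629 genes of the deposited count table. The groups are 4 tumors and 4 small intestine samples, named here as replicates 1 to 4 of each. All 8 come from C57B6/129 mice labelled as Apc mutant, and none was treated; the labels give neither the Apc allele, the age, the stretch of intestine nor whether a tumor and an intestine came from 1 animal. The small intestine is therefore a mutant tissue as well, not a wild-type control. Polyadenylated RNA was sequenced. Nothing in the labels says that the libraries of a group are separate animals, so every p-value here reflects the variation from library to library, and part of that may be technical.

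Wnt proteins are secreted, lipid-bearing signals that bind Frizzled receptors and the co-receptors Lrp5 and Lrp6, and so keep beta-catenin from being degraded by the complex that Apc belongs to. In the intestine this signal maintains the stem cells at the crypt base, and loss of Apc leaves beta-catenin active without it. Many target genes of the pathway are its own inhibitors, acting outside the cell on Wnt proteins or Lrp5 and Lrp6, at the membrane, or inside the cell on Dishevelled, the protein that relays the signal from the receptor.

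The libraries held 53856561 to 67371180 counts in tumors and 62347648 to 84433335 in small intestine. Levels are counts scaled by sequencing depth (CPM) after TMM scaling, which corrects library totals for RNA composition; 3 counts, the limit that a count of 0 allows, correspond to 0.0331 to 0.0630 CPM. Intervals and limits of this kind cover counting error only. The tissues differed throughout: edgeR's quasi-likelihood test called 12649 of 17029 genes (74.3%) at an adjusted p under 0.05, and the median log2 fold change over all genes tested was 0.07 with TMM and 0.93 with library totals, a shift of 0.86 that also moves the fold changes of single genes upward. Of all genes 6619 were higher and 6030 lower with TMM, against 10564 and 2996 with library totals. Enterocyte markers, which define the absorptive lining, summed to 314 to 622 CPM in tumors and 43848 to 53911 CPM in small intestine.

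Of the 10 inhibitors, 8 passed the filter on low counts. Of these, 7 were higher in tumor, 0 were lower, and Nkd2 did not pass the test; among all genes tested 38.9% were called higher and 35.4% lower. The 7 that rose are Notum, Wif1, Dkk2, Dkk3, Nkd1, Apcdd1 and Kremen1, and for each of them every tumor library lay above every small intestine library, as for 37.5% of all genes tested. Dkk1 had no count in any library and Dkk4 had 20 counts over all 8, so neither was tested. The median log2 fold change of the 8 tested was 7.36, beside 0.07 over all genes. The low-count filter keeps a gene with enough counts in as many libraries as a group holds. Notum, Wif1 and Dkk2 met it only through their tumor counts, so they could not be called lower. The count of 7 against 0 and the median are in part set by this filter. The members were also chosen with earlier results of these data known.

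**Figure D1:**
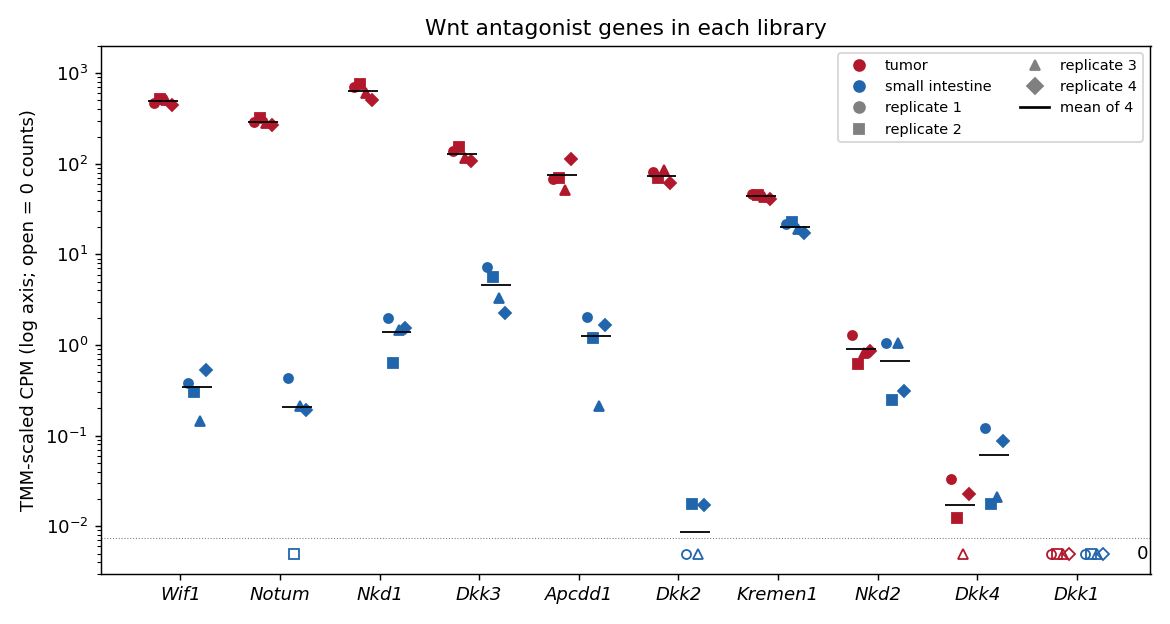
TMM-scaled CPM (log axis) of the 10 inhibitor genes in each library, tumors in red and small intestine in blue, with the mean of 4 as a bar and open symbols for 0 counts. The plot shows that 7 genes separate the tissues without overlap, Nkd2 and Dkk4 overlap, and Dkk1 is at 0 in all 8 libraries.

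Notum and Wif1 act on the Wnt protein itself outside the cell. Notum, on chromosome 11 (GRCm38 chr11:120653788-120661175, minus strand), encodes a carboxylesterase that removes the lipid that Wnt proteins need to bind their receptor. Notum stood at 286, 319, 285 and 271 CPM in tumors 1 to 4 and at 0.434, 0, 0.210 and 0.190 CPM in small intestine 1 to 4. Small intestine replicate 2 had no Notum count at all, and the other intestines had 25, 10 and 11. The log2 fold change was 10.43 ± 0.53 (SE, edgeR adjusted p = 2.65e-07). Without small intestine replicate 1, which holds 25 of the 46 intestinal counts, it was 11.09. The count of Notum is uncertain, because 2 antisense genes overlap it, Myadml2os by 3274 bases and Notumos by 2019 bases. Whether strand was used in counting is not given in the labels, so reads of Notum and of these genes cannot be told apart. The tumors held 8527 Notumos counts (24.5 to 27.5 CPM) and 569 Myadml2os counts, and the intestines held 0 of either.

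Wif1 (chr10:121033960-121100650, plus strand) encodes a secreted protein that binds Wnt proteins and keeps them from their receptors. It stood at 473, 525, 508 and 445 CPM in tumors 1 to 4 and at 0.382, 0.301, 0.147 and 0.535 CPM in the intestines. The intestines held 77 Wif1 counts in all, and the tumors 161073. The groups lay far apart, and the tumors varied among themselves by 7.34% (coefficient of variation), close to the 7.05% of Notum. The log2 fold change of Wif1 was 10.45 ± 0.31 (SE, edgeR adjusted p = 2.46e-08).

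The Dickkopf genes did not move as a family. Dkk1, Dkk2 and Dkk4 encode secreted proteins that bind Lrp5 and Lrp6, and Dkk3 encodes a divergent relative. Dkk2 and Dkk3 rose, whereas Dkk1 and Dkk4 were at or near 0 in both tissues.

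Dkk2 (chr3:132085292-132180304, plus strand) stood at 80.9, 69.3, 85.1 and 60.8 CPM in the tumors. The small intestine held 2 Dkk2 counts in all, 1 each in replicates 2 and 4, against 24407 in the tumors. Its ratio of tumor to small intestine was 8086 (95% interval 2238 to 66769, exact binomial on the summed counts, edgeR adjusted p = 1.7e-08). Dkk2 is thus the member with the largest ratio, and the width of its interval comes from the 2 intestinal counts.

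Dkk3 (chr7:112116017-112159057, minus strand) had a measurable level in the intestine. It stood at 140, 153, 117 and 109 CPM in tumors 1 to 4 and at 7.26, 5.62, 3.34 and 2.28 CPM in the intestines. The lowest tumor was well above the highest intestine, and among the intestines replicate 1 was highest and replicate 4 lowest. The fitted ratio was 28.0-fold (log2 fold change 4.81 ± 0.36, SE, edgeR adjusted p = 2.3e-06).

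Dkk1 (chr19:30545863-30549665, minus strand), at 0 counts in all 8 libraries, is limited to below 0.0331 to 0.0630 CPM. Dkk4 (chr8:22624043-22627547, plus strand) had 3, 1, 0 and 2 counts in the tumors and 7, 1, 1 and 5 in the intestines. The groups overlapped, and an exact 2-sided permutation test on its CPM gave p = 0.2. The ratio of its summed counts, 0.284 (95% interval 0.0894 to 0.787), covers counting error only and not the spread between libraries.

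The start regions of these genes could be compared in part. RefSeq windows from 250 bases before to 50 bases after the start (GRCm38.p6) were used for Wif1, Dkk1, Dkk2, Nkd1 and Nkd2. The chromosome of Apcdd1 was left out of this comparison, so no window of Apcdd1 was searched. The TCF/LEF core CTTTGAT, the recognition sequence of the factors that act with beta-catenin, was searched on both strands, and so was the shorter CTTTGA, which every CTTTGAT match also holds. The RefSeq start of Nkd1 lies 6279 bases inside the annotated gene, so its whole window is within the gene. That of Dkk1 lies 169 bases inside. CTTTGAT was in none of the 5 windows, and in 3.73% of the 32851 windows of the table. CTTTGA was in 5257 of all windows and, among the 5, only in that of Dkk1, which has 2 matches. The sequences shown are those upstream of Wif1 and Dkk2, which were near 0 in intestine and abundant in tumor, and the 2 matches of Dkk1, which had no counts in either tissue. All are written 5′ to 3′ on the strand of the gene, and capitals mark the CTTTGA match or its reverse complement TCAAAG. The stretch of Wif1 is chr10:121033754-121033959 and ends just before the annotated gene. The stretch of Dkk2 is chr3:132085042-132085265. Of the 30-base Dkk1 stretches, chr19:30549653-30549682 spans the annotated start of the gene and chr19:30549596-30549625 lies inside the gene.
Wif1 upstream: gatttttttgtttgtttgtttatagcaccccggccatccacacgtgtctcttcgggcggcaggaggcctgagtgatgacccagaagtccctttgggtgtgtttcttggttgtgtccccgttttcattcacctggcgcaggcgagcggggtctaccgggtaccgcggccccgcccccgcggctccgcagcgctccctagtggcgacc
Dkk2 upstream: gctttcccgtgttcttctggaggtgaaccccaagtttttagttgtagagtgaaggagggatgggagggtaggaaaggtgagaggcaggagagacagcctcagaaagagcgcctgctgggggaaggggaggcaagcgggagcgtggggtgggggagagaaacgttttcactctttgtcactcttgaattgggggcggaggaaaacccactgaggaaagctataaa
Dkk1 match 174 bases before the RefSeq start: gaggggagagtgTCAAAGtcctccctgctt
Dkk1 match 117 bases before the RefSeq start: ctcctcccaaagCTTTGAaatcccatcccg
A match, or its absence, describes only the letters in a window of fixed length.

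At the membrane, Kremen1 and Apcdd1 rose by very different amounts. Kremen1 (chr11:5191552-5261558, minus strand) encodes a receptor that binds Dickkopf proteins together with Lrp6. It stood at 46.4, 44.9, 42.8 and 41.4 CPM in the tumors and at 21.7, 22.6, 19.1 and 17.1 CPM in the intestines. Kremen1 was the only member with more than 10 CPM in small intestine, and the one with the smallest spread among tumors, 5.06%. Its 2.18-fold rise (log2 fold change 1.12 ± 0.11, SE, edgeR adjusted p = 1.1e-05) was not past a minimum of 2-fold when that was the tested threshold (adjusted p = 0.106), all with TMM. With library totals its log2 fold change was 1.98.

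Apcdd1 encodes a membrane glycoprotein that can bind Wnt proteins and Lrp5. Its CPM was 68.1, 69.8, 51.9 and 112 in tumors 1 to 4 and 2.01, 1.19, 0.210 and 1.66 in the intestines. Tumor replicate 4 was highest for Apcdd1, although the same library was the lowest tumor for Notum, Wif1, Dkk2, Dkk3, Nkd1 and Kremen1. The rise was 58.8-fold (log2 fold change 5.88 ± 0.55, SE, edgeR adjusted p = 9.33e-06), and the tumors varied by 33.9%, the largest coefficient among the 7 genes that rose.

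The Naked genes parted ways. Nkd1 and Nkd2 encode related cytoplasmic proteins that bind Dishevelled. Nkd1 (chr8:88521354-88594884, plus strand) stood at 699, 756, 600.0 and 512 CPM in tumors 1 to 4 and at 1.98, 0.637, 1.45 and 1.54 CPM in the intestines. All tumors were above all intestines by a wide margin, and the rise was 458-fold (log2 fold change 8.84 ± 0.37, SE, edgeR adjusted p = 9.5e-08).

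Nkd2 (chr13:73818534-73847631, minus strand) stood at 1.30, 0.619, 0.810 and 0.857 CPM in the tumors and at 1.04, 0.248, 1.05 and 0.311 CPM in the intestines. The groups overlapped: intestines 1 and 3 were above tumors 2, 3 and 4. The log2 fold change of 0.44 ± 0.51 (SE) had an edgeR adjusted p of 0.447. Per gene length, Nkd1 exceeded Nkd2 by 519-, 1089-, 690- and 536-fold in tumors 1 to 4, and by 1.77-, 2.08-, 1.33- and 4.002-fold in the intestines.

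Levels of different genes were set side by side in the deposited FPKM values, which are scaled by gene length. In tumors Wif1 was highest at 295 ± 16.6 FPKM (SD, n = 4), followed by Notum at 264 ± 19.1 and Nkd1 at 167 ± 27.6. The ranges of Wif1 and Notum overlapped between libraries, yet Wif1 was above Notum in 4 of 4 tumors, by 1.07- to 1.19-fold. Dkk3 followed at 42.9 ± 6.66, Apcdd1 at 29.0 ± 10.3 and Dkk2 at 24.0 ± 3.14 FPKM. In that stretch the range of Apcdd1 overlapped those of both its neighbours, so their order is not settled beyond the spread. Kremen1, at 9.30 ± 0.425 FPKM, lay below all of them, and Nkd2 was at 0.252 ± 0.0723. Wif1, Notum and Nkd1 made up 35.5%, 31.7% and 20.1% of the summed tumor FPKM of the 10 genes, and ranked 249, 268 and 439 among the 43437 genes with FPKM values.

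In small intestine the order was another one. Kremen1 was highest there at 2.36 ± 0.390 FPKM (SD, n = 4), followed by Dkk3 at 0.843 ± 0.418, and their ranges did not overlap. Apcdd1, Nkd1, Wif1, Nkd2 and Notum had means of 0.255, 0.212, 0.130, 0.110 and 0.103 FPKM, and each overlapped the next, with Dkk4 and Dkk2 lower still at 0.0304 and 0.00292 FPKM. On these values limma, on log2(FPKM + 1), called the same 7 genes higher, beside 64.6% higher and 18.1% lower among the 12849 genes tested. These 7 were the only members past its filter of a mean of at least 1 FPKM, so Nkd2 was not tested. All of the 7 except Kremen1 had intestinal means under 1 FPKM and passed the filter only through their tumor levels. Kremen1 rose by 1.62 ± 0.10 (SE, limma adjusted p = 6.93e-07) on that scale.

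Axin2, an intracellular scaffold widely used as the standard readout of the pathway, served as a reference within each library. It stood at 309, 328, 305 and 365 CPM in tumors 1 to 4 and at 34.9, 121, 39.2 and 71.9 CPM in the intestines. A ratio of 2 counts in 1 library does not depend on the scaling between tissues, and shows unequal change only. Of the members, 6 had counts in all 8 libraries and could be compared in this way, and the smallest p that 4 against 4 can give is 0.0286.

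Wif1, Nkd1, Apcdd1 and Dkk3 rose more than Axin2. The log2 ratio of Wif1 to Axin2 was 0.58 ± 0.20 in tumors and -7.57 ± 0.96 in intestines (SD, n = 4), a difference of 8.15 (exact 2-sided permutation p = 0.0286). For Nkd1 the difference was 6.46, for Apcdd1 3.77 and for Dkk3 2.46, each without overlap and with the same exact p; without small intestine replicate 2 it was 5.78 for Nkd1, and without replicate 1 it was 4.38 for Apcdd1. Kremen1 rose less than Axin2, and its log2 ratio went from -1.55 ± 0.83 in intestines to -2.90 ± 0.17 in tumors (difference -1.34, exact permutation p = 0.0286). The Benjamini-Hochberg adjusted p of these 5 was 0.0343 over the 6 members. Nkd2 differed by -1.79 (-2.51 without small intestine replicate 2) with overlap between the groups (exact permutation p = 0.171). Axin2 itself rose by 2.29 (log2, edgeR, TMM), beside a median of 0.07 over all genes tested. A gene that did not change therefore also falls relative to Axin2, so the fall of Kremen1 is no trait of its own. The share of all genes that differ from Axin2 in this way is not given here.

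**Figure D2:**
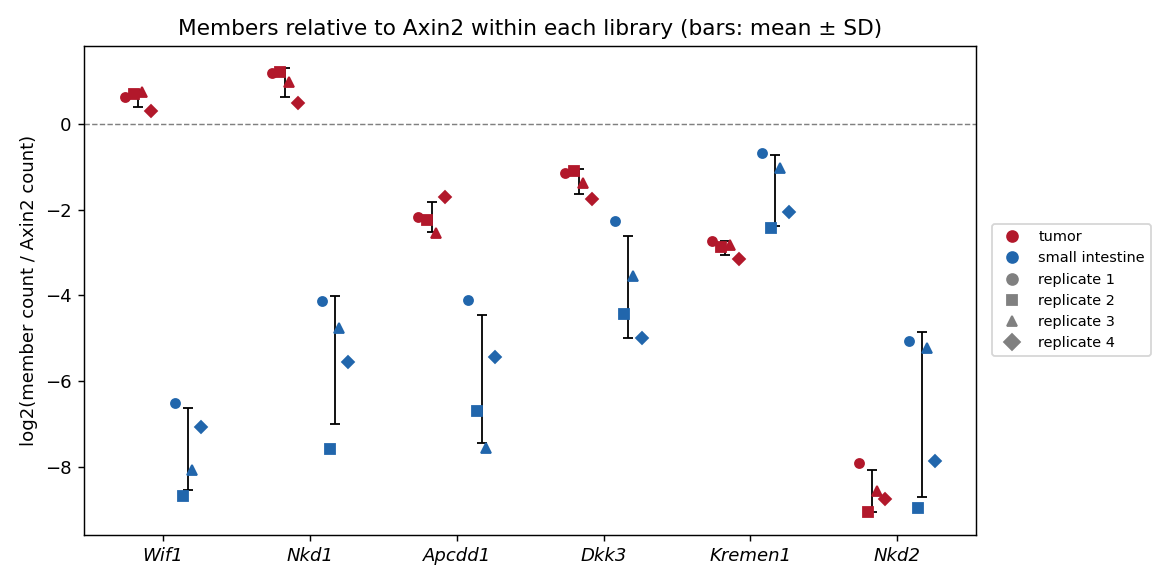
Log2 ratio of each member's count to the Axin2 count in the same library, for the 6 members counted in all libraries, with bars for the mean ± SD of 4. Wif1 moves from -7.57 in intestine to 0.58 in tumor, whereas Kremen1 moves down from -1.55 to -2.90. Axin2 itself is higher in tumor, so a gene that does not change moves down as well.

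Within the intestines the inhibitors ranked in different ways relative to Axin2. Small intestine replicate 2 had the most Axin2, 121 CPM, yet it was the library with no Notum count and with the lowest Nkd1 (0.637 CPM) and Nkd2 (0.248 CPM). Replicate 1, with the least Axin2 at 34.9 CPM, had the highest Notum, Nkd1, Dkk3 and Apcdd1. Kremen1, in contrast, was highest in replicate 2 (22.6 CPM), and Wif1 in replicate 4 (0.535 CPM), which was second for Axin2. With 4 libraries this is a description only.

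The remaining inhibitors and modulators outside the cell mostly rose as well. Of 17 such genes, 12 were tested, 9 rose, 2 fell and 1 was not called, and their median log2 fold change was 3.99. Among all genes tested 38.9% were called higher and 35.4% lower. Trabd2b, Rspo4 and Sfrp4 are among those that passed the low-count filter only through the tumors, so they could not be called lower. Trabd2b, which encodes a protease that cleaves Wnt proteins (Tiki2), rose by 6.41 ± 0.63 (log2, SE), from 0.0579 to 5.14 CPM, and by 7.06 without small intestine replicate 2. Rspo4, which encodes a secreted R-spondin that enhances the signal, rose by 5.24 ± 0.74 on 311 tumor and 5 intestinal counts, and by 6.85 without small intestine replicate 4, which holds most of the latter. Sfrp4, a secreted Frizzled-related inhibitor, had 161 counts in tumors against 2 in intestines (ratio 53.3, 95% interval 14.5 to 444). Draxin, which encodes a secreted guidance protein that binds Lrp6, fell by 2.68 (SE 0.82, edgeR adjusted p = 0.0142), a call that was lost with library totals (log2 fold change -1.84, adjusted p = 0.0642). Draxin stood at 3.42, 2.95, 0.420 and 0.345 CPM in intestines 1 to 4. Tumor 1, at 0.519 CPM, lay above intestines 3 and 4, so the groups overlapped. Kremen2, the sister gene of Kremen1, fell from 9.41 ± 0.659 to 2.68 ± 0.983 CPM (SD, n = 4; log2 fold change -1.81 ± 0.30, SE); its name was added once the values were known.

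Negative feedback genes inside the cell and at its membrane were mixed. All 11 were tested, 8 rose and 3 fell, beside 38.9% higher and 35.4% lower among all genes, and the median of their log2 fold changes was 2.29. Tnfrsf19, a membrane receptor, rose by 7.06 ± 0.39 (log2, SE) and Znrf3, a ubiquitin ligase that removes Frizzled, by 4.02 ± 0.17. Amer2, whose protein binds Apc, had 1051 counts in tumors and 2 in intestines (ratio 348, 95% interval 96.1 to 2879). It passed the low-count filter only through the tumors. Dact2, which encodes a Dishevelled-binding protein, fell by 1.73 (SE 0.17), from 79.8 to 24.0 CPM. The falls of Axin1 (log2 fold change -0.26) and Ctnnbip1 (-0.75) turned to 0.61 and 0.11 with library totals. Beside these, 14 of 14 nuclear and stem cell targets of the pathway rose, with a median of 3.38 and a range of 1.56 to 6.54. The lists were chosen with earlier results of these data known, so their medians are a description only. Prox1, a transcription factor, led the targets at 6.54 ± 0.14, before Msx1 at 5.74 ± 0.52 and Ephb3 at 4.15 ± 0.29.

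The genes for proteins on which the antagonists act were split with TMM and mostly higher with library totals. Of 14 genes, 7 rose, 5 fell and 2 were not called with TMM, beside 38.9% higher and 35.4% lower among all genes, and the median log2 fold change was 0.51. With library totals 10 were higher and 1, Fzd5, was lower. The 4 glypicans of the list, from a family of cell-surface proteoglycans that can carry Wnt proteins and to which Notum binds, differed among themselves. Gpc1 rose by 5.16 ± 0.26 (log2, SE), with 85.7 to 87.6 CPM in the tumors, and Gpc6 by 1.72 ± 0.55. Gpc3 rose by 8.80 ± 0.88 but spread widely over the tumors, at 41.6, 44.1, 16.1 and 154 CPM in replicates 1 to 4, and its log2 fold change was 7.93 without tumor replicate 4. Gpc4 was at -0.83 with TMM and 0.04 with library totals. Lrp5, a co-receptor blocked by Dickkopf proteins, rose by 0.76, whereas its partner Lrp6 was at -0.30 with TMM and 0.57 with library totals, so its direction depends on the scaling. Fzd5, a Frizzled receptor, fell by 2.72 (SE 0.11), from 222 to 33.7 CPM. With TMM, Dvl1 (-0.95) and Lrp4 (-0.44) were called lower as well, and with library totals they were at -0.09 and 0.42 without a call.

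**Figure D3:**
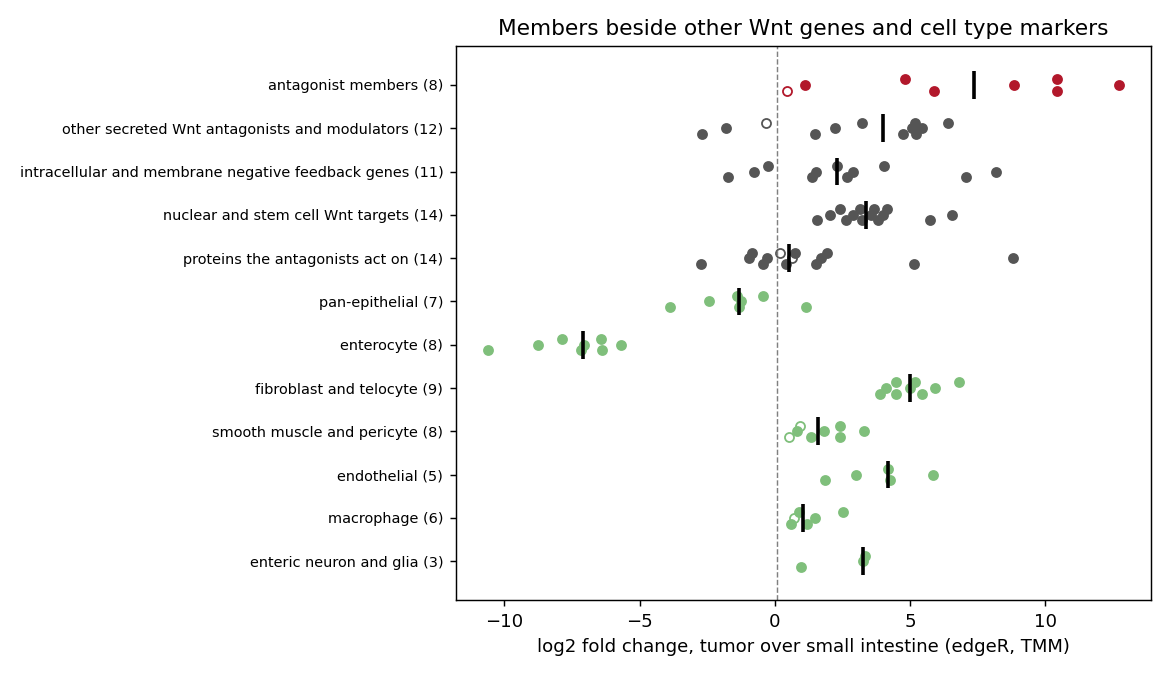
Log2 fold change of tumor over small intestine (edgeR, TMM) for each tested gene of the inhibitor set, of 4 other groups of Wnt genes and of 7 cell type marker lists, with the number tested in brackets, a black bar for the median, open circles for genes not called and a dashed line at the median of all genes. The inhibitors have a median of 7.36, the nuclear and stem cell targets 3.38, and the enterocyte markers -7.11. These medians cover tested genes only, without Dkk1 and Dkk4. The lists were chosen with earlier results of these data known, so the medians describe the lists and do not test them.

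Cell type markers also differed between the tissues, in either direction by cell type. Among all genes tested 38.9% were called higher and 35.4% lower. All 9 fibroblast and telocyte markers rose, with summed levels of 1169 to 1877 CPM in tumors and 17.4 to 61.7 CPM in intestines. All 5 endothelial markers rose (139 to 181 against 6.85 to 21.3 CPM), as did 6 of 8 smooth muscle and pericyte markers (260.3 to 304 against 46.1 to 112 CPM), 5 of 6 macrophage markers (206 to 353 against 84.2 to 235 CPM) and the 3 of 6 enteric neuron and glia markers that could be tested (7.59 to 11.4 against 1.04 to 1.997 CPM). Of 7 pan-epithelial markers 1 rose and 6 fell, from 18194 to 24699 CPM in intestines to 6171 to 8479 CPM in tumors, and all 8 enterocyte markers fell. With library totals 2 pan-epithelial markers rose and 4 fell. In bulk samples, a change in the number of cells of a type cannot be told apart from a change in RNA per cell.

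Several marker lists, like Dkk3 and Kremen1, were higher in intestines 1 and 2 than in 3 and 4. Kremen1 stood at 21.7, 22.6, 19.1 and 17.1 CPM there, so the split is not particular to Dkk3. In replicates 1 to 4, where Dkk3 was at 7.26, 5.62, 3.34 and 2.28 CPM, the summed levels were 61.7, 45.7, 17.4 and 18.6 CPM for fibroblast, 21.3, 20.1, 7.29 and 6.85 CPM for endothelial and 235, 226, 115 and 84.2 CPM for macrophage markers. Smooth muscle and pericyte markers went the other way, at 74.1, 46.1, 112 and 88.5 CPM. Enteric neuron and glia markers, at 1.997, 1.04, 1.32 and 1.31 CPM, did not share the order either. In tumors 1 to 4 the fibroblast sums were 1877, 1402, 1576 and 1169 CPM, an order that Dkk3 (140, 153, 117 and 109 CPM) did not share. The part of any of these cell types in the level of Dkk3 or Kremen1 was not tested. When the libraries were scaled to the 9 fibroblast markers instead of TMM, 2.18% of all genes were higher and 92.9% lower. Notum, Wif1, Dkk2 and Nkd1 were higher on that scale, with log2 fold changes of 5.41, 5.28, 7.95 and 3.62. Dkk3 was at -0.18 (edgeR adjusted p = 0.7) and Apcdd1 at 0.88 (adjusted p = 0.0764), and neither was called, while Kremen1 (-4.05) and Nkd2 (-4.71) were called lower. This scaling lowers the log2 fold changes of all genes by a similar amount. Which members remain higher therefore follows from their fold changes with TMM and is no separate check. Each marker had equal weight, also Twist2 with 2 intestinal counts. Scaled to the 7 pan-epithelial markers, all 8 tested inhibitors were higher, Nkd2 at 1.74 (edgeR adjusted p = 0.0146), beside 71.4% of all genes.

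**Figure D4:**
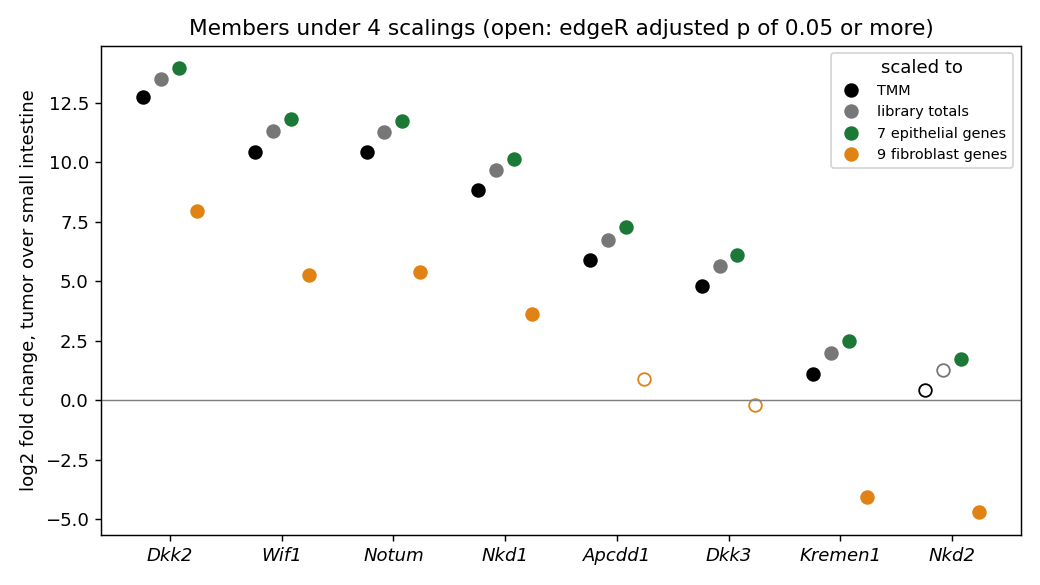
Log2 fold change of the 8 tested inhibitors (edgeR) with libraries scaled by TMM, by library totals, to 7 epithelial markers or to 9 fibroblast markers, open where the adjusted p was 0.05 or more. Dkk2, Wif1, Notum and Nkd1 have log2 fold changes of 3.62 or more in all 4 scalings, whereas Dkk3 falls to -0.18 and Kremen1 to -4.05 relative to fibroblast markers.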

How the data were processed

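The labels describe polyadenylated RNA from 4 tumors and 4 small intestines. Per the submitters' processing notes, FastQC, STAR, HTSeq 0.6.0 and Cufflinks 2.2.1 were used with GRCm38; for the role of each and the strand setting, the sources used here give nothing. The authors deposited raw counts per gene, and separately FPKM values, a unit scaled by length and depth. Low-count genes were removed from the counts with filterByExpr. Tissues were compared with edgeR 4.0.16 (quasi-likelihood test, TMM, R 4.3.3) over 17029 genes, with Benjamini-Hochberg adjustment and a threshold of 0.05. FPKM values were tested with limma 3.58.1 on log2(FPKM + 1) at a mean FPKM of at least 1, and ratios to Axin2 with exact permutation tests. Scripts were tested on simulated counts in which few genes changed, in equal numbers up and down. In these data most genes were called, so that run cannot show how the tests perform here. No 2 libraries of a group agreed within sampling noise.

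Alternatives were DESeq2 1.42.0, other scalings and filters, a minimum fold of 2, a replicate block and leaving out each library. The members and lists were chosen with earlier results of these data known. Named genes were the 10 members and, from each Wnt list, up to 3 called genes with the largest change plus the largest in the minority direction; the 3 genes with the most similar profile were named for the 4 members with the highest tumor FPKM. Kremen2, Axin1, Ctnnbip1, Lrp4, Lrp5, Lrp6, Dvl1, Gpc4 and Gpc6 fall outside this rule and were named after their values were seen; Axin2 was the fixed reference. Starts come from RefSeq (GRCm38.p6) and were used for 5 of 10 members, with the chromosome of Apcdd1 left out.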

Additional observations from a re-analysis of the deposited data

How the results depend on the processing

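Beside the 7 members called higher with TMM, 7 were called with DESeq2, library totals, a stricter or no count filter, the replicate block and every library left out (7 to 7). A minimum fold of 2 left 6, without Kremen1. Scaling to pan-epithelial markers gave 8. Scaling to fibroblast markers left 4 higher, with Dkk3 at -0.18, Nkd2 at -4.71 and Kremen1 at -4.05; the cause was not tested. Over all genes edgeR called 12649, and 12049 to 12917 with 1 library left out; a minimum fold of 2 called 6732, which follows from the stricter hypothesis. With library totals 10564 genes were higher and 2996 lower, against 6619 and 6030 with TMM. Whether equal replicate numbers mark 1 animal is not known. The deviations of same-numbered libraries correlated at -0.22 to 0.01, and 0 of 4 tumors correlated best with their own number. Such correlations between 2 different tissues cannot tell whether libraries share an animal. With the replicate block, edgeR called 11893 genes (Notum 10.50, Nkd2 0.65, log2) and limma on FPKM 10355 instead of 10623. With 1 library left out, limma called 10198 to 10751 genes, and the log2 fold change ranged from 10.00 to 11.09 for Notum, 8.59 to 9.05 for Nkd1, 4.58 to 5.10 for Dkk3, 5.54 to 6.17 for Apcdd1, 1.05 to 1.19 for Kremen1 and 0.17 to 0.75 for Nkd2. Ratios to Rnf43 or Lgr5 in place of Axin2 differed for 6 members instead of 5, adding Nkd2. Rnf43 and Lgr5 rose as well, by 2.67 and 3.55 (log2, TMM), so an unchanged gene also falls relative to them. Depth limits Dkk1, Dkk4 and the intestinal levels of Dkk2 and Notum.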

Other observations

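The genes whose profiles over the 8 libraries lay nearest to those of the leading inhibitors were also nearly absent from small intestine. Likeness was measured as the root mean square difference of centred log2(CPM + 0.5) levels over 13867 genes. The added 0.5 flattens levels far below 0.5 CPM, so a short distance does not mean an equal fold change. Bpifb5, from a family of secreted lipid-binding proteins, was nearest to Wif1 (0.38), Notum (0.31) and Nkd1 (0.35). It stood at 153 to 280.0 CPM in tumors and at 0 counts in the 4 intestines. Its log2 fold change was 16.8, beside 10.45 for Wif1, 10.43 for Notum and 8.84 for Nkd1. Wfdc18 was among the 3 nearest of all of these as well (0.56, 0.54 and 0.53), at 91.4 to 334 CPM in tumors and 0.0173 to 0.0347 CPM in intestines. The remaining neighbours were Slc38a4, an amino acid transporter, for Wif1 (0.50), Sox17, a transcription factor, for Notum (0.61), and Muc6, a secreted gel-forming mucin typical of stomach and duodenal glands, for Nkd1 (0.53).

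Dkk3 had other neighbours: the glypican Gpc1 (0.21), the gap junction gene Gja1 (0.21) and the fibrillar collagen gene Col5a3 (0.21). Gja1 stood at 41.5 to 55.9 CPM in tumors and 1.03 to 2.93 CPM in intestines, and Col5a3 at 20.3 to 27.9 against 0.138 to 0.590 CPM. The median distance to all other genes was 4.59 for Wif1, 4.35 for Notum, 4.22 for Nkd1 and 2.41 for Dkk3. These distances rest on the same tissue contrast and describe likeness in 8 libraries only.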
